A study of Mus musculus with 5 samples.

Results

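The small leucine-rich proteoglycans are secreted proteins of the extracellular matrix, each with a core of leucine-rich repeats. The 10 members described here were taken by gene symbol, out of 32285 genes counted: *Dcn* (decorin), *Bgn* (biglycan), *Aspn* (asporin), *Fmod* (fibromodulin), *Lum* (lumican), *Kera* (keratocan), *Prelp* (prolargin), *Omd* (osteomodulin), *Ogn* (osteoglycin or mimecan) and *Epyc* (epiphycan). Most of these proteins bind collagen and set how its fibrils assemble, and several bind TGF-β or related growth factors. Decorin and biglycan carry chondroitin or dermatan sulfate chains, asporin has a related core with an aspartate stretch, and fibromodulin, lumican, keratocan and osteomodulin can carry keratan sulfate. They are matrix components of skin, tendon, cartilage and bone, the tissues that surround and form the skeleton.

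The measurements were unique molecular identifier (UMI) counts per gene and cell from 5 single-cell RNA sequencing libraries of C57BL/6N mice, as the labels name the strain, where the study's text names C57BL/6J. The groups were untreated: penis of postnatal day 6 (P6) males, when the baculum (the penis bone) starts to ossify, in 3 libraries, and forelimb and hindlimb at e15, in 1 library each, for which the study's text gives day 15.5 and male embryos. Forelimb and hindlimb were pooled as limb in the comparisons, each library staying 1 sample. Tissue, age and preparation therefore differed together and cannot be told apart, and the limb spread rests on 2 libraries from different limbs. The study's text gives a single set of embryos for both limbs, so the limb libraries may share animals, and p-values then rest on fewer independent limb samples than 2. The penis libraries came from separate males, and the limb tissue was pooled over embryos. The study's text takes its 3 penis males from 2 litters, so some penis libraries may share a litter.

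After filtering, 5708 to 7085 cells were kept per penis library, 22057 of forelimb and 20514 of hindlimb, with median depths of 8792 to 9909, 5358 and 6057 UMIs per cell. Between 20 and 88 cell barcodes were shared by any penis library and another library, and 203 by the limb libraries. Each cell was given a type by the markers it carried, none of them a member. Mesenchymal cells were most numerous, at 3195 to 3864 per penis library, 9472 of forelimb and 9202 of hindlimb. Tendon cells (205 to 271 per penis library, 1083 and 928), mural cells of vessel walls (189 to 219, 151 and 126), chondrocytes (76 to 103, 1255 and 1700) and osteoblasts (24 to 32, 38 and 27) made up the other connective tissue. Levels are UMIs of a gene scaled to the summed UMIs of a type's cells (CPM, the usual counts-per-million unit), and in sums of cells a lower share of expressing cells and less RNA per cell cannot be told apart.

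The labels of these types went only partly with their markers. Of the penis chondrocytes, 91.4% to 96.1% had a UMI of *Col9a2* and 51.3% to 68.0% of *Acan*, but only 0% to 3.23% of the cartilage matrix gene *Matn1*, against 54.0% and 56.2% of the limb chondrocytes. Between 82.8% and 86.8% of the penis chondrocytes also reached the mesenchymal limit, against 24.9% and 28.4% of the limb ones. Just enough markers were carried by 218 of 271, 195 of 238 and 160 of 205 penis tendon cells. In limb tendon cells the numbers were 714 of 1083 and 606 of 928. For chondrocytes they were 70 of 103, 60 of 93 and 55 of 76 in penis and 246 of 1255 and 368 of 1700 in limb. Over all penis tendon cells *Tnmd* was found in 25.2% to 33.7%, against 61.2% and 57.2% in forelimb and hindlimb, *Thbs4* in 28.3% to 42.4% against 59.5% and 48.3%, *Mkx* in 91.5% to 92.7% against 61.0% and 68.9% and *Scx* in 60.5% to 68.3% against 63.3% and 71.1%. Mural cells reached the mesenchymal limit in 61.9% to 72.8% of cells over the 5 libraries. What these differences add to the comparisons below was not tested beyond the alternative gates.

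All members but *Bgn* lie in 3 neighbourhoods of the mouse genome (build GRCm38). On chromosome 13, *Ecm2*, *Aspn*, *Omd* and *Ogn* follow each other between 49504810 and 49624501. On chromosome 10, *Dcn*, *Lum*, *Kera* and *Epyc* lie between 97479609 and 97682454, and on chromosome 1, *Optc*, *Prelp* and *Fmod* lie between 133897199 and 134048277. *Bgn* is on chromosome X, between 73483602 and 73495933. *Aspn* (49544443 to 49567565), *Omd* (49582462 to 49592822) and *Ogn* (49608046 to 49624501) lie within *Cenpp*, a centromere gene on the opposite strand, and whether the counting used strand is not given in the sources used here. *Cenpp* stood at 42.1 to 51.5 CPM in the penis mesenchymal cells and 64.1 and 67.9 in the limb ones. In tendon cells it stood at 62.3 to 81.0 CPM in penis and 66.7 and 74.6 in limb, and in chondrocytes at 72.7 to 84.1 and 66.2 and 90.1. In osteoblasts it stood at 34.1, 88.9 and 29.3 CPM in penis and at 105 and 103 in limb, where *Omd* stood at 136 and 125. Its part in the values of these 3 members was not tested. *Prelp* overlaps the gene *Gm15851* and *Epyc* the gene *Gm10754*, both also on the opposite strand.

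Neighbours in the clusters of chromosomes 13 and 10 had unlike levels across cell types, and their upstream sequences are shown so that the neighbours can be compared. Each is the stretch of 250 bases before a RefSeq start (GRCm38.p6), read 5′ to 3′. Capitals mark matches on either strand to TATAAA, to TGTGGT (the core that RUNX factors bind), to ACAAAG (a SOX motif) and to CAGATG (an E-box).
*Aspn*, chr13:49544193-49544442, plus strand: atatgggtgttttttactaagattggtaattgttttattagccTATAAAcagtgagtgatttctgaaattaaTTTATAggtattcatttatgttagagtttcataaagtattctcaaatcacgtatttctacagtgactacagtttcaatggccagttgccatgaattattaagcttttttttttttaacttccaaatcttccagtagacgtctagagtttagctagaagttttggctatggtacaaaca
*Omd*, chr13:49582212-49582461, plus strand: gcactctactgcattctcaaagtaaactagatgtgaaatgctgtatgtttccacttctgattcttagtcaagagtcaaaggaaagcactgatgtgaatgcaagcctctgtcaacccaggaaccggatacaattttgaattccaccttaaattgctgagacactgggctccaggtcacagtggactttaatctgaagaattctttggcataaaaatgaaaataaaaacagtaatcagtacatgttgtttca
*Ogn*, chr13:49607765-49608014, plus strand: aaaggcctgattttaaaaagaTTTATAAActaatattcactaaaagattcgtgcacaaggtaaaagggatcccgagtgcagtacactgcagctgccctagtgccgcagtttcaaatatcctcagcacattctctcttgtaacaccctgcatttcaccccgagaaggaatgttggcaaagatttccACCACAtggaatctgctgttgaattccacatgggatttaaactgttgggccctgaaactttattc
*Kera*, chr10:97606955-97607204, plus strand: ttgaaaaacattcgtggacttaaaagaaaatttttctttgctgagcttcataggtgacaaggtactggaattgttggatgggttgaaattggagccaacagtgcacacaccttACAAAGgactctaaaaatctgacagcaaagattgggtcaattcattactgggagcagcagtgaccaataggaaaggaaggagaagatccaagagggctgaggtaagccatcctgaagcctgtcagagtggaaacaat
*Epyc*, first start, chr10:97643818-97644067, plus strand: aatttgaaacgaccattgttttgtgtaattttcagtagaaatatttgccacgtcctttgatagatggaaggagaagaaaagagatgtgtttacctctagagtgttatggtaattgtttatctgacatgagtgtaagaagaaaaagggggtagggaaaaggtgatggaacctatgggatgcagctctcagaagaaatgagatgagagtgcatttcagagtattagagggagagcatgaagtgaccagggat
*Epyc*, second start, chr10:97646853-97647102, plus strand: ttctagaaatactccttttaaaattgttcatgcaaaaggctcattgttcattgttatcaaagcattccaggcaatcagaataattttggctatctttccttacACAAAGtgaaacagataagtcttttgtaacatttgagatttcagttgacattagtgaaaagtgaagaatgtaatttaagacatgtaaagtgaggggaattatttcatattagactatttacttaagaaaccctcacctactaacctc
Of the upstream stretches of 32851 RefSeq starts, 12.4% held TATAAA, 14% TGTGGT, 16.5% ACAAAG and 14.4% CAGATG. *Ogn* held TATAAA on both strands, in overlapping letters, and TGTGGT on the reverse strand. *Aspn* held TATAAA on both strands, 207 and 178 bases before its start. *Kera* held ACAAAG 137 bases before its start, and *Epyc* held it 147 bases before the second start. *Omd* and the first start of *Epyc* held none of the 4. The stretches of *Kera* and of the second start of *Epyc* lie inside the genes as GENCODE bounds them, past the first annotated start. *Dcn* and *Lum* have no entry among these sequences, so 8 of 10 members matched.

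Summed over the members, the family took 0.641% to 0.663% of all UMIs in penis mesenchymal cells and 0.316% and 0.287% in limb ones. In tendon cells the share was 0.748% to 0.787% in penis and 0.282% and 0.228% in limb. In leukocytes it was 0.0494% to 0.0724% in penis and 0.0461% and 0.0359% in limb. Chondrocytes held 0.393% to 0.487% in penis and 0.158% and 0.114% in limb. The few cells gated as red blood cells, 10 to 15 per penis library and 62 and 57 in limb, held 0.413% to 0.472% and 0.192% and 0.153%. These cells also held 777 to 1203 CPM of the 5 mesenchymal markers in penis and 886 and 1025 in limb, against 156 to 194 and 251 and 226 in leukocytes. Their red cell markers *Hemgn*, *Rhag* and *Klf1* were at 0 in penis replicates 1 and 3, and between 3.80 and 19.0 CPM in replicate 2 and 9.07 and 65.5 CPM in limb. Their family level is therefore not read as that of red blood cells. The leukocyte level is used here as the background. It is not a clean one, as 6.36% to 10.3% of the leukocytes per library also reached the mesenchymal limit. It also differs from that of other cells. Epithelial cells held 696 to 791 CPM of *Dcn* in penis and 553 to 748 in limb, against 274 to 446 and 180 to 240 in leukocytes. At a depth of 2000 UMIs per cell, a penis mesenchymal cell held a UMI of 2.55 to 2.57 members on average, a limb one 2.37 and 2.19, and a leukocyte 0.308 to 0.391. Penis tendon cells held the most members among the gated types with over 100 cells per library, 3.71 to 3.89 on average, and limb tendon cells held 2.70 and 2.29. The fewer penis osteoblasts, 24, 30 and 25 cells at that depth, held 4.17, 3.37 and 3.32.

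**Figure D1:**
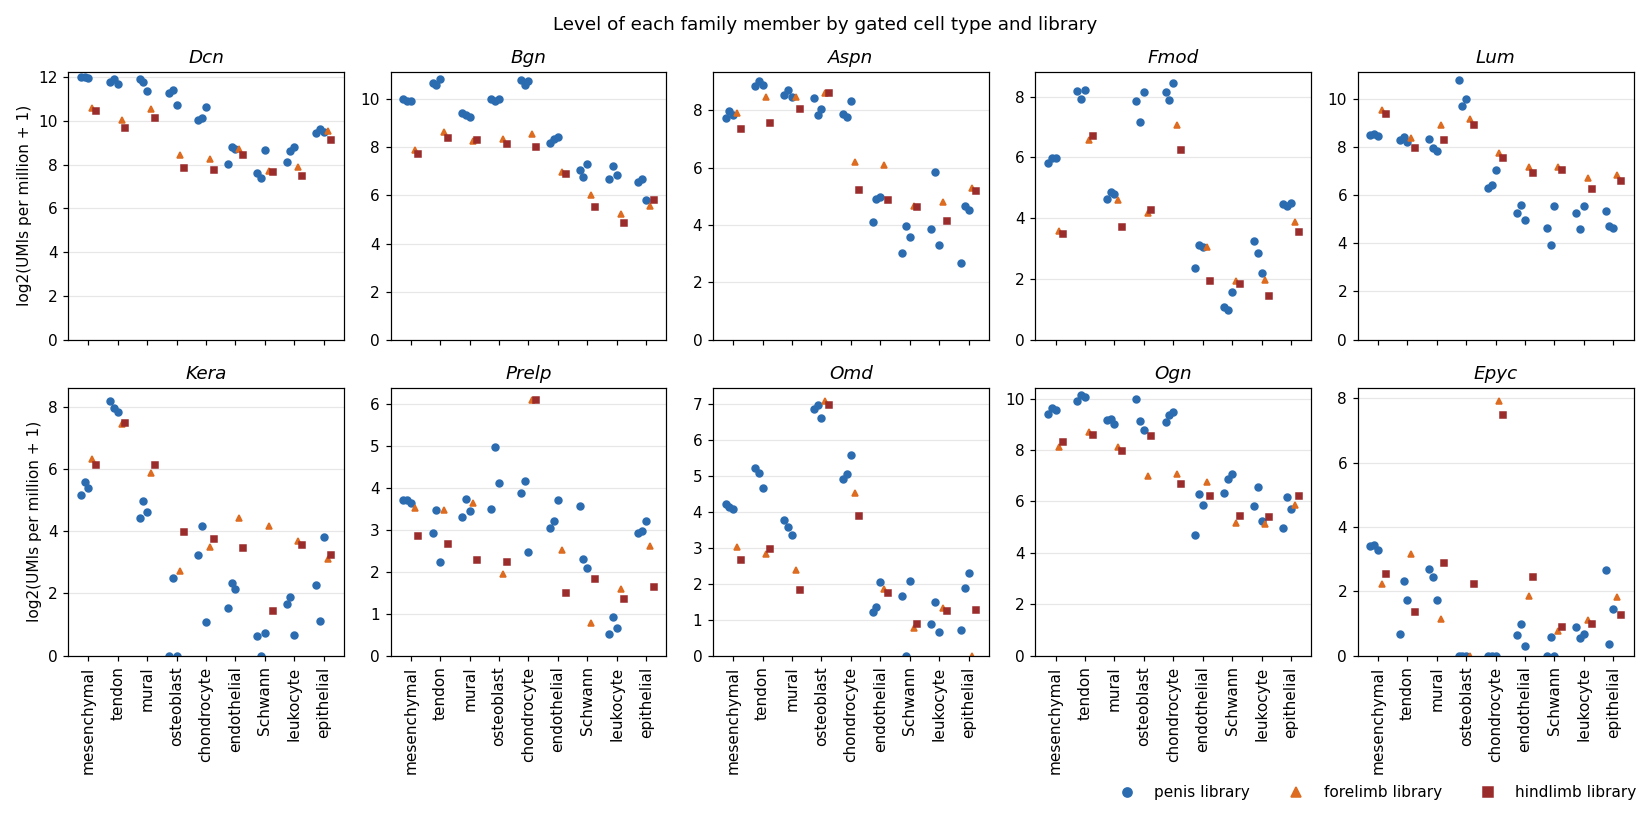
Level of each member, as log2(CPM + 1), in 9 gated cell types; each point is 1 library (blue circles, 3 penis libraries; orange triangle, forelimb; dark red square, hindlimb). *Kera* is highest in tendon cells of every library, *Omd* in osteoblasts of every library, and *Epyc* at 242 and 179 CPM in limb chondrocytes against 0 in the 3 penis sums.

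In mesenchymal cells, 6 of the 10 members were higher in penis than in limb and none was lower, by the limits used throughout (adjusted p under 0.01 and a log2 fold-change beyond 1, edgeR's quasi-likelihood test over all genes). Of the 20006 genes tested, 25% passed in either direction. The members' median log2 fold-change was 1.22, and that of all genes 0.01.

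*Dcn*, whose protein binds collagen fibrils and TGF-β, stood at 4121, 4086 and 3962 CPM in the penis libraries and at 1560 and 1419 in forelimb and hindlimb. The log2 fold-change was 1.42 ± 0.09 (SE, adjusted p = 1.38e-06). *Bgn*, its closest relative, stood at 1030, 979 and 982 CPM in penis and at 236 and 214 in limb (2.13 ± 0.08, adjusted p = 6.34e-08). No penis library came near a limb library for either gene.

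*Fmod*, a regulator of fibril diameter in tendon, had the largest change of the family in these cells. It stood at 55.2, 62.7 and 61.8 CPM in penis and at 10.9 and 10.2 in limb (log2 fold-change 2.48 ± 0.08, adjusted p = 3.64e-08). *Ogn* stood at 673, 797 and 753 CPM in penis and at 276 and 316 in limb (1.3 ± 0.09, adjusted p = 2.96e-06). *Omd*, named for its place in bone matrix, was low in both, at 15.9 to 17.5 CPM in penis and 7.19 and 5.30 in limb (1.40 ± 0.13, adjusted p = 1.29e-05).

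*Lum* and *Kera*, which are neighbours on chromosome 10 and best known from the cornea, went the other way without passing the fold limit. *Lum* stood at 361, 369 and 351 CPM in penis and at 734 and 658 in limb (log2 fold-change -0.97 ± 0.07, adjusted p = 3.97e-06). *Kera* stood at 34.9, 46.9 and 40.9 CPM in penis and at 79.6 and 69.0 in limb (-0.88 ± 0.12, adjusted p = 0.000149). For both genes all 3 penis libraries lay below both limb libraries, and *Lum* passed without the hindlimb library (-1.06).

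*Aspn*, which binds collagen and TGF-β, did not pass either limit. Its penis values of 214, 249 and 226 CPM lay between the forelimb value of 242 and the hindlimb value of 163 or just above them (log2 fold-change 0.16 ± 0.15, adjusted p = 0.363), and leaving out the hindlimb library turned its sign. *Prelp*, a heparin-binding member known from cartilage and basement membranes, gave 0.49 ± 0.19 (adjusted p = 0.0437). *Epyc*, a member of growth cartilage, passed at 1.13 ± 0.13 (adjusted p = 5.75e-05), from 8.73 to 9.89 CPM in penis and 3.64 and 4.83 in limb, and lost the call without the forelimb library. When cells were thinned to 2000 UMIs and gated again, *Lum* and *Kera* passed as lower and *Prelp* as higher, and *Epyc* and *Omd* no longer passed.

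**Figure D2:**
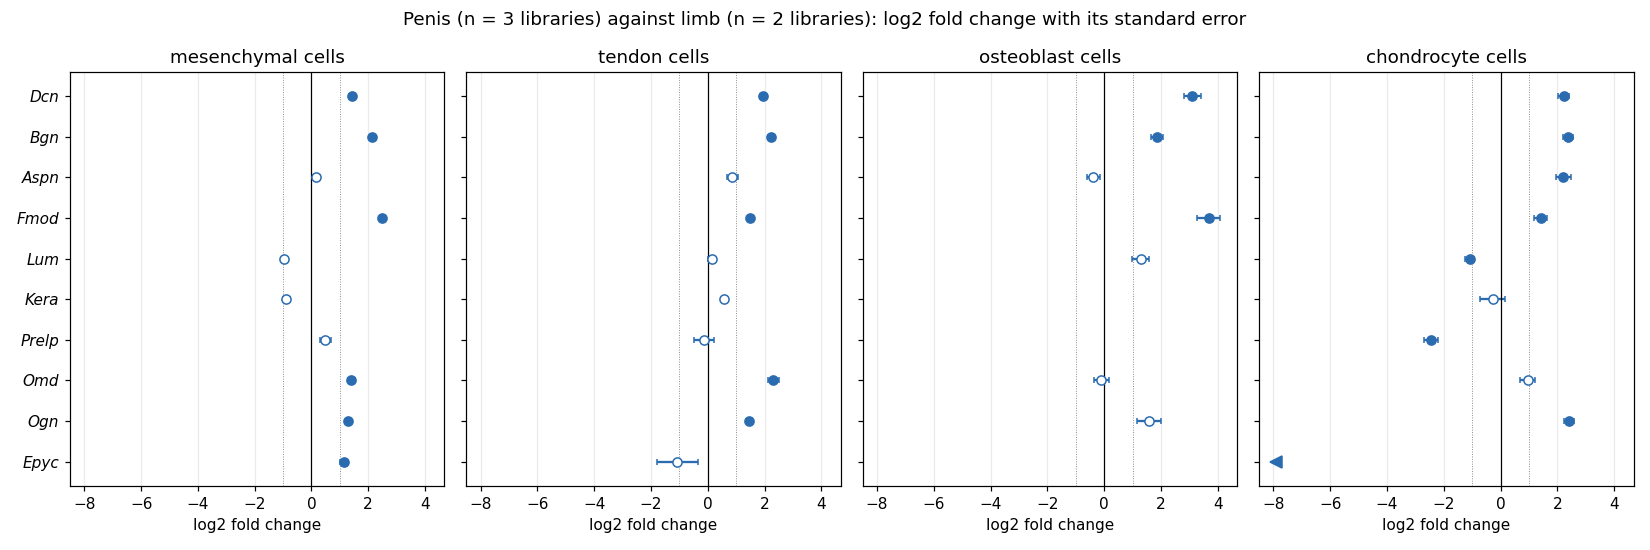
Log2 fold-change of each member, penis (3 libraries) against limb (2 libraries), in 4 cell types; bars are standard errors, filled points passed both limits, dotted lines mark the fold limit, and the triangle is the bound for *Epyc*, which had no UMI in penis chondrocytes. *Dcn*, *Bgn* and *Fmod* lie to the right in all 4 panels, between 1.42 and 3.68; genes without a point were not tested.

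The level of several members depended on which mesenchymal cells were taken. Cells carrying at least 2 of *Pi16*, *Clec3b* and *Dpp4*, markers of adventitial and subcutaneous fibroblasts, made up 10.0% to 11.4% of the mesenchymal cells in penis, and 7.06% and 3.67% in forelimb and hindlimb. They were compared with mesenchymal cells that had none of the 3 markers. The former were also deeper, with medians of 11314 to 12434 UMIs per cell against 9045 to 10318 in penis, and 9195 and 9134 against 5069 and 5948 in limb.

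In penis, *Dcn* stood at 11752, 11727 and 11508 CPM in the *Pi16* cells and at 1996, 2058 and 2004 in cells without the markers. In limb it stood at 2764 and 2704 CPM against 1255 and 1262. The *Pi16* cells were higher in all 5 libraries, and the gap was wider in each penis library than in either limb library. *Prelp* went the other way, with ratios of 2.91 to 3.41 in penis and 11.0 and 7.44 in limb, as did *Aspn*, with 1.01 to 1.46 in penis and 2.56 and 2.13 in limb. *Lum* showed a gap in penis, at 839, 856 and 809 CPM against 223, 237 and 219, and much less of one in limb, at 849.6 and 710.2 against 755 and 663. *Ogn* stood at 1330, 1517 and 1433 CPM against 515, 603 and 589 in penis, and at 385 and 465 against 208 and 288 in limb.

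*Kera* was higher in the *Pi16* cells of each library, at 104, 172 and 117 CPM against 19.5, 19.6 and 22.4 in penis. *Epyc* was found in 12.5% to 17.6% of the penis *Pi16* cells and in 0.910% to 1.09% of the penis cells without the markers. At 2000 UMIs per cell the shares were 4.95% to 6.80% and 0.300% to 0.349%. In CPM it stood at 43.2, 54.3 and 39.9 against 2.35, 2.00 and 2.87, while the limb *Pi16* cells held 2.45 and 2.51. *Omd* was higher in the *Pi16* cells of penis (28.3, 30.4 and 25.5 CPM against 15.8, 14.8 and 14.6) and lower in those of limb (2.31 and 3.07 against 9.56 and 5.83). *Bgn* and *Fmod* did not follow: both were lower in the *Pi16* cells of every library.

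**Figure D3:**
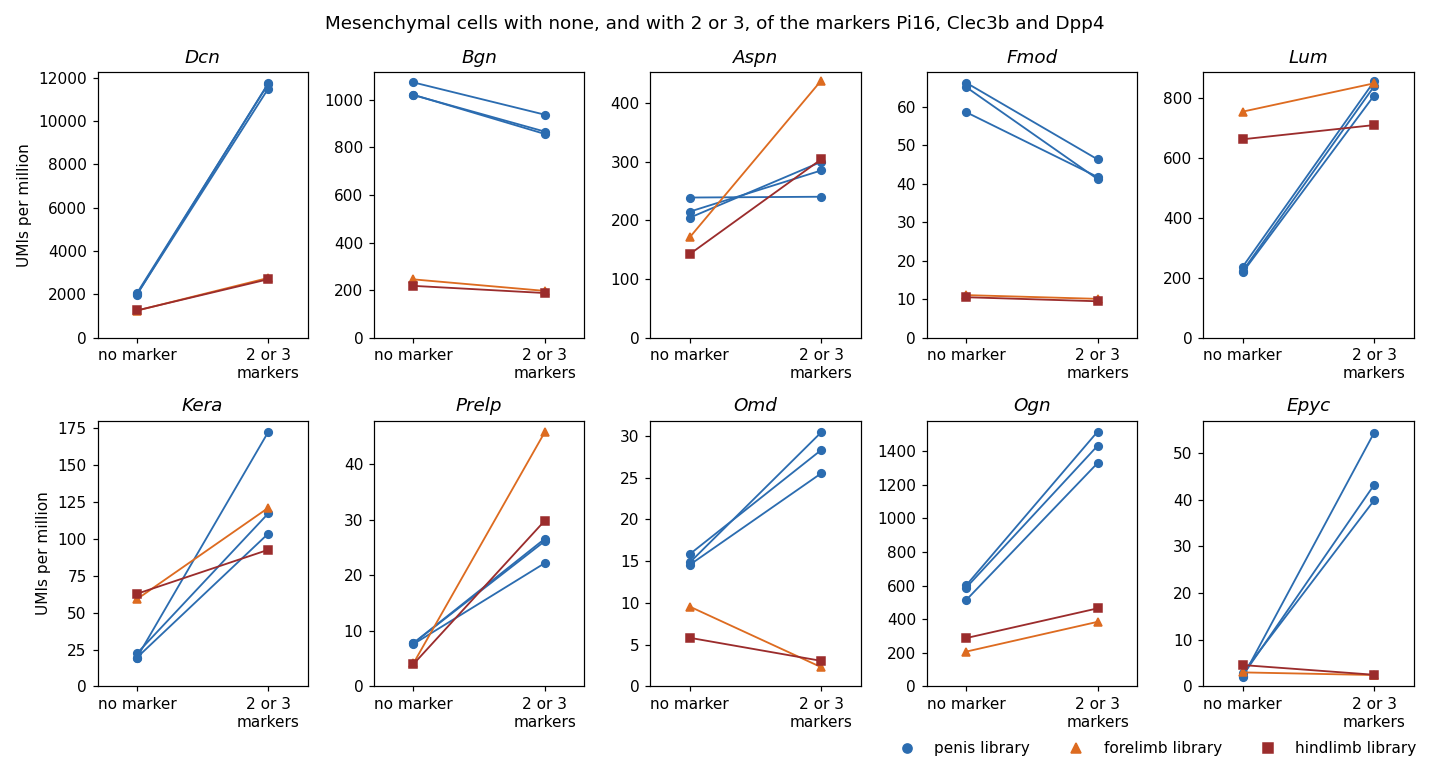
Level of each member, in CPM, in mesenchymal cells with none and with 2 or 3 of the markers *Pi16*, *Clec3b* and *Dpp4*; each line joins the sums of 1 library (blue, penis; orange, forelimb; dark red, hindlimb). *Dcn* climbs to between 11508 and 11752 in the penis libraries, and *Bgn* and *Fmod* fall in every library.

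The penis against limb comparison was then repeated within each class, a choice made after the data were seen. In the *Pi16* cells, *Epyc* was higher in penis by 4.20 ± 0.23 on the log2 scale (adjusted p = 1.77e-09), *Omd* by 3.43 ± 0.22 (adjusted p = 1.03e-08), *Bgn* by 2.20 ± 0.09 (adjusted p = 1.17e-10), *Fmod* by 2.12 ± 0.15 (adjusted p = 2.07e-08), *Dcn* by 2.09 ± 0.09 (adjusted p = 2.25e-10) and *Ogn* by 1.75 ± 0.11 (adjusted p = 5.33e-09). *Aspn*, *Lum*, *Kera* and *Prelp* did not pass in these cells. The limb *Pi16* cells held only 17 and 9 UMIs of *Epyc* and 16 and 11 of *Omd*, so the sizes of these 2 differences are not exact. Over all genes, 3053 passed in the *Pi16* cells, against 5006 in all mesenchymal cells. Member calls in the *Pi16* cells and in cells without the markers are not set against a share of the genes tested. In cells without the markers, *Dcn* no longer passed the fold limit (0.65 ± 0.08, adjusted p = 3.34e-05), *Omd* missed it too (0.96 ± 0.17, adjusted p = 0.000531), and *Epyc* turned to -0.72 ± 0.21 (adjusted p = 0.0102). There, *Lum* fell by 1.68 ± 0.08 (adjusted p = 3.75e-08) and *Kera* by 1.60 ± 0.07 (adjusted p = 1.72e-08), both past the limits. *Bgn* (2.13 ± 0.08) and *Fmod* (2.52 ± 0.08) stood near their values over all mesenchymal cells (2.13 and 2.48). *Ogn* also passed without the markers (1.17 ± 0.13, adjusted p = 1.55e-05), while *Prelp* (0.90 ± 0.11) and *Aspn* (0.46 ± 0.10) missed the fold limit.

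Dividing cells, those with at least 3 of 6 mitosis genes, were 4.24% to 5.04% of the penis mesenchymal cells and 21.9% and 21.2% of the limb ones. *Ogn* stood lower in them in every library, at 187, 370 and 290 CPM in penis against 726, 844 and 794 in cells with none of the genes, and at 184 and 198 against 317 and 374 in limb. *Aspn* followed, at 117, 208 and 181 CPM against 223, 254 and 233 in penis and at 154 and 101 against 292 and 194 in limb. Among cells with none of these genes, the penis against limb difference of *Aspn* was -0.06 ± 0.14 (adjusted p = 0.715) and that of *Kera* -1.12 ± 0.10 (adjusted p = 3.1e-06), which passed, and *Epyc* lost its call. *Dcn*, *Bgn*, *Fmod*, *Omd* and *Ogn* passed there as they did over all mesenchymal cells, and *Lum* and *Prelp* did not. The share of all genes that passed in this class is not given here.

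In tendon cells, 5 of the 10 members were higher in penis, and 16.1% of 13461 genes passed in either direction. These 5 were *Dcn*, *Bgn*, *Fmod*, *Omd* and *Ogn*, with log2 fold-changes of 1.95 ± 0.11, 2.22 ± 0.10, 1.5 ± 0.10, 2.30 ± 0.20 and 1.44 ± 0.09. *Dcn* stood at 3539, 3807 and 3247 CPM in penis and at 1039 and 827 in limb. *Fmod* stood at 289, 239 and 295 CPM in penis and at 93.9 and 103 in limb. Each penis library was above both limb libraries for both genes.

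*Kera* and *Aspn*, both high in tendon cells, differed less between the tissues. *Kera* stood at 293, 247 and 229 CPM in penis and at 172 and 178 in limb (log2 fold-change 0.58 ± 0.10, adjusted p = 0.000526). *Aspn* stood at 463, 521 and 468 CPM in penis and at 351 and 189 in limb (0.87 ± 0.19, adjusted p = 0.0026), and passed without the forelimb library. *Lum* gave 0.14 ± 0.12 (adjusted p = 0.36), with penis values of 291 to 338 CPM and limb values of 332 and 249 that overlapped. *Prelp* (-0.13 ± 0.36) and *Epyc* (-1.08 ± 0.72) did not pass.

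In osteoblasts, 3 members were higher in penis out of 7 tested, against 3.64% of 6243 genes in either direction. *Dcn* stood at 2515, 2710 and 1685 CPM in penis and at 346 and 229 in limb (log2 fold-change 3.11 ± 0.30, adjusted p = 0.000175). *Fmod* stood at 229, 143 and 280 CPM in penis and at 17 and 18.4 in limb (3.68 ± 0.40, adjusted p = 0.000341), and *Bgn* rose by 1.85 ± 0.21 (adjusted p = 0.000386).

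*Omd* was as high in limb osteoblasts as in penis ones within the spread, at 136 and 125 CPM against 116, 124 and 97.8 (-0.10 ± 0.25, adjusted p = 0.863). *Lum* stood at 1741, 828 and 1004 CPM in penis and at 570 and 479 in limb (1.29 ± 0.30, adjusted p = 0.0209). *Ogn* gave 1.58 ± 0.44 (adjusted p = 0.0466). *Aspn*, at 227 to 348 CPM in penis and 394 and 387 in limb, gave -0.38 ± 0.23 (adjusted p = 0.346). *Kera*, *Prelp* and *Epyc* were not tested in these cells. The limb values of *Dcn* stood near the limb leukocyte level of 180 to 240 CPM, so the size of its difference is not exact. These sums hold 24 to 38 cells each, and *Bgn* lost its call when 1 more osteoblast marker was required. *Bglap*, the osteocalcin gene of mature osteoblasts, was found in 31.3% to 44.0% of the penis osteoblasts and in 5.26% and 0% of the limb ones. The other markers of this gate were split. *Ifitm5* stood lower in penis, at 133 to 143 CPM against 476 and 431 in limb. *Ibsp*, at 346 to 1683 against 3215 and 2407, and *Sp7*, at 63.1 to 88.0 against 102 and 122, did so too. *Runx2* did not, at 1867, 1013 and 1324 CPM in penis against 1012 and 822 in limb. *Alpl* overlapped, at 264 to 341 against 258 and 358.

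In chondrocytes, 5 members were higher and 3 lower in penis out of 10 tested, against 17.5% of 10954 genes in either direction. *Bgn* stood at 1779, 1561 and 1728 CPM in penis and at 375 and 254 in limb (log2 fold-change 2.39 ± 0.17, adjusted p = 4.63e-07). *Dcn* stood at 1066, 1104 and 1582 CPM in penis and at 310 and 212 in limb (2.22 ± 0.20, adjusted p = 3.60e-06). *Ogn* rose by 2.42 ± 0.17, *Aspn* by 2.21 ± 0.26 and *Fmod* by 1.42 ± 0.22. For these 5 genes every penis library was above both limb libraries. The limb values of *Dcn* overlapped the limb leukocyte level of 180 to 240 CPM, so the size of its difference is not exact.

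*Epyc* had no UMI in the 103, 93 and 76 penis chondrocytes, and 1794 and 2103 UMIs in the limb ones, which come to 242 and 179 CPM. Against a floor of 3 UMIs over the summed penis cells (0.876 CPM), it was at least 240-fold higher in limb (adjusted p = 4.47e-08). It was found in 18.9% and 19.5% of the limb chondrocytes, with up to 36 UMIs in a cell. *Prelp* stood at 13.8, 17 and 4.55 CPM in penis and at 68.0 and 67.1 in limb, so that it fell by 2.46 ± 0.25 on the log2 scale from limb to penis (adjusted p = 6.89e-06). *Lum* stood at 78.1, 85.6 and 132 CPM in penis and at 213 and 187 in limb (-1.09 ± 0.17, adjusted p = 0.000266), a call lost without penis replicate 1 or the forelimb library. *Omd* gave 0.96 ± 0.26 (adjusted p = 0.00955) and passed without the forelimb library (1.33), and *Kera* gave -0.28 ± 0.44.

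The chondrocyte gate drew unlike cells in the tissues, as its markers show. *Col2a1*, the main collagen gene of cartilage, was itself 4.69 ± 0.23 log2 units lower in the penis chondrocytes. In the 10 to 16 penis and 942 and 1218 limb chondrocytes that did not reach the mesenchymal limit, a class set after the data were seen, *Dcn* was still higher in penis by 3.27 ± 0.44 (adjusted p = 0.00177), *Aspn* by 2.86 ± 0.47 (adjusted p = 0.0044) and *Bgn* by 2.43 ± 0.32 (adjusted p = 0.00155), and *Prelp* fell by 3.13 ± 0.49 (adjusted p = 0.00344). *Ogn* was higher too (2.50 ± 0.27, adjusted p = 0.000615), and *Epyc*, with no UMI in penis, passed as lower (adjusted p = 0.00103). *Fmod* and *Lum* no longer passed there, and *Kera* and *Omd* were not tested. Over all genes, 366 passed in this class, against 1919 in all chondrocytes. The share of the genes tested in this class is not given here, so the member calls are not set against it.

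In mural cells *Dcn* (1.32 ± 0.18), *Bgn* (1.04 ± 0.11), *Omd* (1.65 ± 0.41) and *Ogn* (1.07 ± 0.12) were higher and *Kera* (-1.36 ± 0.19) lower in penis, 5 of 9 members tested (13.7% of 12030 genes). *Aspn*, *Fmod*, *Lum* and *Prelp* did not pass, *Epyc* was not tested, and these calls depended on the gate. *Omd* lost its call without any 1 of penis replicates 1 and 2, forelimb and hindlimb, and *Ogn* without hindlimb. With 1 more mural marker required, leaving 96 to 115 penis and 53 limb cells per library, *Dcn* gave 0.12 ± 0.30 and *Bgn* 0.47 ± 0.15, *Kera* changed sign, and *Lum* alone passed (-2.08 ± 0.29, adjusted p = 0.000158). In endothelial cells (15.2% of 13767 genes) *Bgn* stood at 293, 322 and 343 CPM in penis and at 123 and 118 in limb (1.39 ± 0.09, adjusted p = 3.68e-09), against 102, 149 and 114 and 36.5 and 28.3 in leukocytes. *Lum*, *Kera* and *Epyc* were lower there, at -1.77 ± 0.14, -2.30 ± 0.34 and -2.47 ± 0.56, and *Prelp* higher by 1.46 ± 0.37. *Prelp* lost its call without penis replicate 3 or hindlimb, and *Epyc* without hindlimb. In the penis endothelial cells *Lum* (30.2 to 47.3 CPM), *Kera* (1.89 to 4.05) and *Epyc* (0.243 to 0.965) stood at or near the penis leukocyte levels of 23.4 to 45.9, 0.589 to 2.70 and 0.450 to 0.856, so these 3 differences are not read as endothelial expression in penis. *Dcn*, *Aspn*, *Fmod*, *Omd* and *Ogn* did not pass. With thinning, *Bgn* lost its call. The 5 mesenchymal markers together stood at 146 to 180 CPM in the penis endothelial cells and at 451 and 359 in the limb ones, and 8.43% to 9.38% and 18.5% and 18.1% of these cells reached the mesenchymal limit. The part of such cells in the result was not tested. In Schwann cells (16.5% of 11285 genes) *Ogn* stood at 80.0, 115 and 134 CPM in penis and at 34.5 and 42.3 in limb (1.56 ± 0.22, adjusted p = 5.98e-05), *Bgn* was higher by 1.31 ± 0.18, and *Lum* stood at -2.29 ± 0.26. The penis Schwann cells held 107 to 158 CPM of *Bgn* and 14.3 to 45.7 of *Lum*, within or near the leukocyte levels of 102 to 149 and 23.4 to 45.9, and leukocyte *Bgn* itself stood at 36.5 and 28.3 CPM in limb. Leukocyte *Ogn*, at 37.1 to 94.1 CPM in penis and 34.0 to 41.5 in limb, overlapped the Schwann cell values in both tissues. The values of these 3 members are therefore not read as Schwann cell expression. Of the 5 members tested, *Dcn* and *Aspn* did not pass, and *Fmod*, *Kera*, *Prelp*, *Omd* and *Epyc* were not tested.

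Comparing the types within a tissue placed each member. *Kera* led in tendon cells: in penis they stood at 229 to 293 CPM against 34.9 to 46.9 in mesenchymal cells (log2 fold-change 2.74 ± 0.12, adjusted p = 3.08e-14), and in limb at 172 and 178 against 79.6 and 69.0 (1.22 ± 0.14, adjusted p = 7.32e-07). *Fmod* was higher in tendon cells in both tissues (2.26 ± 0.13 in penis, 3.21 ± 0.17 in limb). *Aspn* was higher in penis tendon cells (1.15 ± 0.12, adjusted p = 4.06e-08) and did not pass in limb (0.36 ± 0.14, adjusted p = 0.113). *Bgn* was also above mesenchymal cells, at 0.82 ± 0.08 in penis and 0.69 ± 0.10 in limb, short of the fold limit. In all, 4 members passed in penis (6.96% of 14320 genes) and 3 in limb (2.04%), where *Lum* was lower (-1.3 ± 0.18), a call lost without hindlimb. *Dcn*, *Prelp*, *Omd* and *Ogn* did not pass in either tissue. *Epyc* was lower in penis tendon cells (-2.05 ± 0.54, from 18 UMIs in all), a call lost when any penis library was left out. Its penis tendon values of 0.596 to 3.96 CPM overlapped the 2.00 to 2.87 of penis mesenchymal cells without the *Pi16* markers.

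*Omd* marked osteoblasts in both tissues. It stood at 116, 124 and 97.8 CPM against 15.9 to 17.5 in penis mesenchymal cells (2.81 ± 0.20, adjusted p = 1.92e-10), and at 136 and 125 against 7.19 and 5.30 in limb (4.25 ± 0.26, adjusted p = 4.02e-11). *Kera* was lower in osteoblasts of both, with 2 UMIs over the penis and 6 over the limb sums. *Lum* (1.72 ± 0.16, adjusted p = 1.87e-08) and *Fmod* (1.85 ± 0.21, adjusted p = 7.14e-07) were higher in penis osteoblasts. *Dcn* was lower in limb osteoblasts (-2.52 ± 0.22, adjusted p = 1.74e-08) and gave -0.78 ± 0.15 in penis ones (adjusted p = 0.000525). That makes 4 members in penis, against 5.25% of all genes, and 3 in limb, against 2.19%. The call of *Kera* in limb was lost without either limb library. *Bgn*, *Aspn*, *Prelp*, *Ogn* and *Epyc* did not pass in either tissue, nor did *Fmod* and *Lum* in limb. *Kera* in osteoblasts, at 0 to 4.68 CPM in penis and 5.67 and 14.7 in limb, overlapped the leukocyte levels of 0.589 to 2.70 and 10.7 to 12.0, and limb *Dcn* stood near its own, so these sizes are not exact.

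Chondrocytes moved most members. In limb 9 of 10 differed from mesenchymal cells (14.3% of genes): *Epyc* (5.63 ± 0.23), *Fmod* (3.29 ± 0.17), *Prelp* (3.1 ± 0.16) and *Omd* (1.52 ± 0.15) were higher, and *Kera* (-2.67 ± 0.18), *Dcn* (-2.52 ± 0.19), *Aspn* (-1.92 ± 0.15), *Lum* (-1.77 ± 0.18) and *Ogn* (-1.34 ± 0.23) were lower. *Bgn* was the exception at 0.49 ± 0.10. Limb chondrocyte *Kera*, at 10.2 and 12.3 CPM, and *Dcn*, at 310 and 212, overlapped the limb leukocyte levels of 10.7 to 12.0 and 180 to 240 used as background, so the sizes of these 2 differences are not exact. In penis 6 of 10 differed (11.1% of genes). *Fmod* (2.25 ± 0.14) and *Omd* (1.06 ± 0.18) were higher there, and *Kera* (-2.09 ± 0.31), *Lum* (-1.91 ± 0.19) and *Dcn* (-1.68 ± 0.15) lower. *Epyc* was at least 10.7-fold lower, from a mean of 9.39 CPM in penis mesenchymal cells, with a call lost when any penis library was left out. The mesenchymal sums include the *Pi16* cells. Without the *Pi16* markers, penis mesenchymal cells held 1996 to 2058 CPM of *Dcn* and 2.00 to 2.87 of *Epyc*. Penis chondrocytes held 1066 to 1582 CPM of *Dcn*, and the floor for *Epyc* was 0.876 CPM. Chondrocytes were not tested against mesenchymal cells without the markers. *Omd* lost its penis call without penis replicate 3. *Bgn* (0.76 ± 0.08), *Aspn* (0.16 ± 0.13), *Prelp* (0.06 ± 0.32) and *Ogn* (-0.22 ± 0.19) did not pass in penis. Penis chondrocyte *Kera*, at 1.14 to 17 CPM, overlapped the penis leukocyte level of 0.589 to 2.70.

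Mural cells differed little from mesenchymal cells at the gate used: *Fmod* was lower in penis (-1.15 ± 0.20, adjusted p = 8.27e-05; 6.63% of genes passed) and no member passed in limb (2.63%), where edgeR gave 3 members (*Bgn*, *Aspn* and *Lum*) at an adjusted p under 0.01 with a smaller fold, the same number as at an unadjusted p under 0.05. With 1 more marker, 5 members were lower in penis and 2 in limb. Calls over all genes also rose there, to 1600 from 949 in penis and to 727 from 377 in limb.

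**Figure D4:**
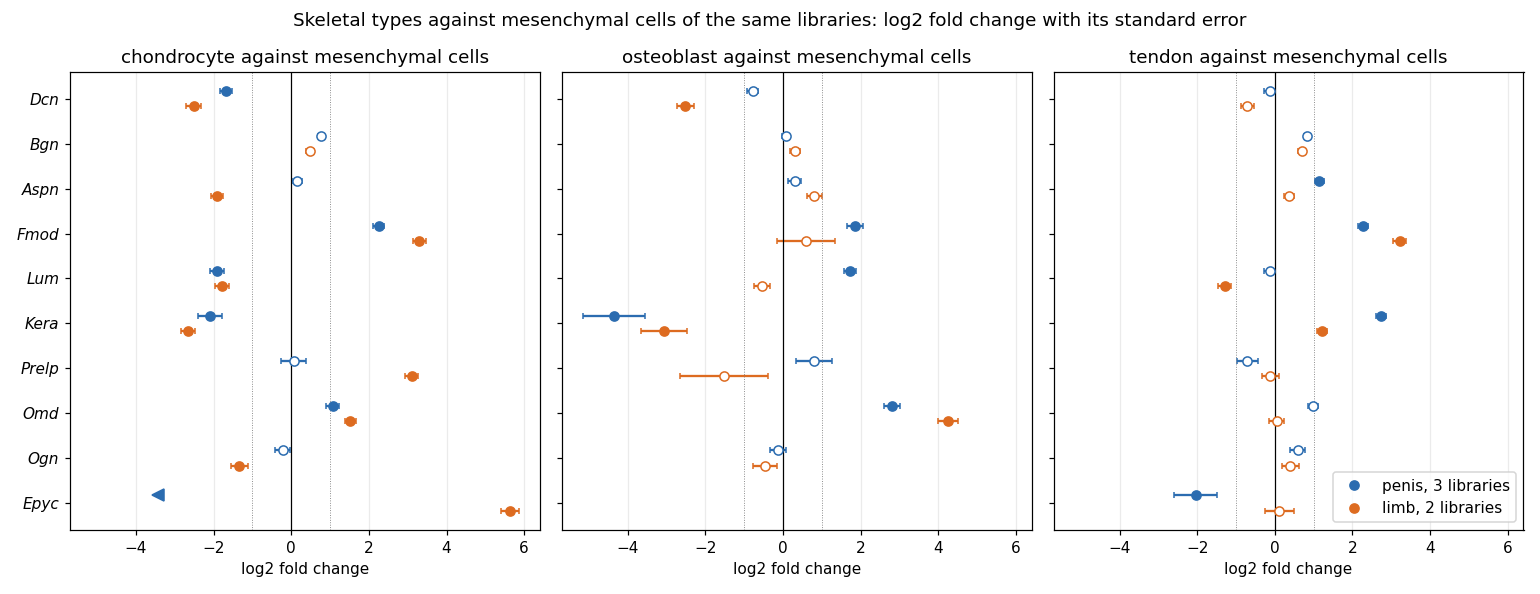
Log2 fold-change of each member in chondrocytes, osteoblasts and tendon cells against mesenchymal cells of the same libraries (blue, 3 penis libraries; orange, 2 limb libraries); bars are standard errors, filled points passed both limits, and the triangle is the bound for *Epyc* in penis chondrocytes. *Omd* lies far right in osteoblasts (2.81 and 4.25), *Kera* in tendon cells (2.74 and 1.22), and *Prelp* and *Epyc* in limb chondrocytes (3.1 and 5.63); *Epyc* in osteoblasts, with 1 UMI in all, is not drawn.

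Whether a type effect differed between the tissues was tested directly. For chondrocytes 5 members passed (8.74% of genes), for osteoblasts 3 (1.33%), for tendon cells 2 (4.17%) and for mural cells 2 (2.06%). *Prelp* passed as raised in limb and did not pass in penis chondrocytes, a difference of -3.04 ± 0.30 on the log2 scale (adjusted p = 3.99e-08). *Aspn* was lowered in limb chondrocytes and did not pass in penis ones (difference 2.08 ± 0.20, adjusted p = 1.91e-08). The chondrocyte calls of *Prelp*, *Aspn*, *Fmod* and *Ogn* were all lost when cells were thinned to 2000 UMIs. That fit also left out the chondrocytes of penis replicate 3, as only 17 remained, under the limit of 20. Depth and the missing sum cannot be told apart there. In osteoblasts the effect on *Lum* was 2.27 ± 0.26 higher in penis (adjusted p = 9.60e-06). In tendon cells the effect on *Kera* was 1.52 ± 0.18 higher in penis (adjusted p = 2.09e-06) and that on *Lum* 1.16 ± 0.23 higher (adjusted p = 0.000952). The differences of *Aspn* (0.79 ± 0.18, adjusted p = 0.00413), *Omd* (0.94 ± 0.22, adjusted p = 0.00556) and, in the other direction, *Fmod* (-0.95 ± 0.20, adjusted p = 0.00242) missed the fold limit. *Fmod* passed with 1 more marker, when thinned, and without penis replicate 1 or forelimb, and *Omd* without penis replicate 3 or hindlimb.

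The order of the types was alike in the tissues for some members. *Dcn* was highest in mesenchymal cells of penis, with no overlap with tendon cells, and in limb mesenchymal and mural cells overlapped at the top. The penis rank holds for all mesenchymal cells together. Those without the *Pi16* markers stood at 1996 to 2058 CPM, below penis tendon cells (3247 to 3807) and mural cells (2620 to 3892). *Kera* was highest in tendon cells of both tissues and *Omd* in osteoblasts of both, without overlap with the next type. *Ogn* had its highest mean in tendon cells of both tissues. In penis its tendon values (958.8 to 1128.5 CPM) overlapped those of osteoblasts (436.9 to 1010.2), and in limb they overlapped no other type. For *Fmod*, chondrocytes and tendon cells overlapped at the top in both, but the place of osteoblasts differed. Penis osteoblasts (143 to 280 CPM) overlapped penis chondrocytes and tendon cells. Limb osteoblasts, at 17 and 18.4 CPM, stood below limb chondrocytes and tendon cells without overlap. *Lum* was highest in osteoblasts of penis (828 to 1741 CPM) and in mesenchymal cells of limb (658 and 734), each without overlap with the next type.

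Over 49 sums of a library and type with at least 20 cells, the genes whose log2(CPM + 1) was most like a member's were listed, as a description. The points share libraries, cell types and depth. *Dcn* was most like *Htra1*, which encodes a protease that cleaves decorin (Pearson r = 0.91), *Aspn* most like the mesenchymal marker *Prrx1* (r = 0.95), and *Bgn* most like *Mir100hg* (r = 0.95). *Omd* was most like *Clec11a*, a growth factor of osteoblast lineage cells (r = 0.91), and next but one like the osteoblast factor *Sp7* (r = 0.89). *Prrx1* and *Sp7* are markers of the mesenchymal and osteoblast gates that formed these sums, so likeness to them is partly built in. *Fmod* was most like *Wif1* (r = 0.92), *Lum* like the parathyroid hormone receptor gene *Pth1r* (r = 0.90), and *Ogn* like *Olfml1* (r = 0.93). *Epyc* (0.76 with *Pou3f3*), *Prelp* (0.74 with *Golgb1*) and *Kera* (0.82 with *Fgf18*) had looser neighbours.

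The other genes of the pathway were counted from lists, to be read against the shares of all genes that passed, 25% in mesenchymal cells, 16.1% in tendon cells, 17.5% in chondrocytes and 3.64% in osteoblasts. In mesenchymal cells, 4 of 8 other leucine-rich proteoglycans were higher and 1 lower in penis, among them *Chad* (chondroadherin, 3.56 ± 0.24), *Podn* (podocan, 1.78 ± 0.11) and *Optc* (opticin, 1.22 ± 0.18), with *Nyx* (nyctalopin) the lower one (-1.17 ± 0.19). Of 19 genes tested that build chondroitin and dermatan sulfate, *Chpf*, a chondroitin polymerizing factor, was higher (1.76 ± 0.07) and *Csgalnact1*, which starts the chains, lower (-1.15 ± 0.16), with a list median of 0.12 against 0.01 for all genes. Of 6 keratan sulfate genes, the sulfotransferases *Chst1* (2.38 ± 0.09) and *Chst2* (1.27 ± 0.07) were higher and *Chst5* lower (-2.18 ± 0.20). Of 12 collagens that these proteins bind, *Col14a1* was higher (1.37 ± 0.17) and *Col2a1*, *Col11a1* and *Col12a1* lower, a count near the share of all genes. Of 8 proteases that cleave the family, 4 were higher, *Mmp3* (2.28 ± 0.27), *Mmp2* (2.08 ± 0.06), *Htra1* (1.18 ± 0.11) and *Mmp14* (1.05 ± 0.06), with a list median of 0.86.

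In tendon cells 7 of 12 collagens were higher in penis and 1 was lower, with a list median of 1.10 (all genes 0.00), *Col1a1* at 1.92 ± 0.08 and *Col14a1* at 1.87 ± 0.13. *Chad* was higher by 4.95 ± 0.20 and *Ecm2*, the neighbour of *Aspn*, by 2.54 ± 0.17. In chondrocytes 9 of 12 collagens were higher, among them *Col5a2* (2.90 ± 0.14) and *Col1a1* (2.34 ± 0.17), and *Col2a1* and *Col11a1* (-2.54 ± 0.15) were lower. Of 19 genes tested that build chondroitin and dermatan sulfate, 3 were higher and 4 lower there, with a list median of -0.06. The lower ones included *Csgalnact1* (-5.32 ± 0.23) and *Chst11*, a chondroitin sulfotransferase (-1.70 ± 0.12). In osteoblasts 5 of 12 collagens were higher, among them *Col12a1* (1.70 ± 0.27) and *Col6a1* (1.42 ± 0.21), with a list median of 0.89.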

How the data were processed

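Per the labels and the study's methods, the authors made 10x 3′ single-cell libraries and processed the reads with Cell Ranger 7.0.0 on the mm10 genome. What they deposited were UMI counts, not normalized. Whether introns were counted is not given in the sources used here. Cells were kept with 500 to 6000 genes (penis), 100 to 9000 (forelimb) or 100 to 9500 (hindlimb), at most 5% (penis) or 10% mitochondrial UMIs, and log10 genes per log10 UMIs of at least 0.8. A type was given by a minimum number of its markers. Cells of 2 types other than mesenchymal were left out as mixed, and no doublet caller was run. Counts were summed per library and type (at least 20 cells in the main fits; alternatives of penis against limb also used smaller sums, of 6 to 15 osteoblasts with 1 more marker, 6 to 13 when thinned, 17 thinned chondrocytes in penis replicate 3 and 10 to 16 non-mesenchymal penis chondrocytes) and tested with edgeR 4.0.16 (R 4.3.3, limma 3.58.1; TMM, filterByExpr, quasi-likelihood test, Benjamini-Hochberg over all genes tested), and with DESeq2 1.42.0 as an alternative. Type effects came from 1 fit with the library as a block. Each standard error was derived from the fold-change and its F value. For penis against limb, p-values measure the spread between these libraries. For type effects and their differences, they measure the scatter of the sums left after library and type effects were fitted. Bounds used a floor of 3 UMIs over a group's sums. Alternatives included thinning to 2000 UMIs per cell and stricter gates, and the *Pi16*, division and non-mesenchymal classes were added after the data were seen. The tests were checked on simulated data. Annotation was GENCODE and RefSeq. Python 3.11.15 (pandas 2.3.3, numpy 2.4.6, scipy 1.17.1) made the tables and matplotlib 3.10.9 the plots. The members, gene lists, gates and tests were chosen with earlier results of these data known. The rule was to name all members in each comparison, but for mural against mesenchymal cells and for type effects that differed between tissues mainly those that passed are named. It also took at most 4 called genes of each other list and the 3 genes most like each member.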

Additional observations from a re-analysis of the deposited data

Results flagged for a closer look

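Each value here is a member's effect of a cell type against mesenchymal cells that differed between penis and limb in the interaction test of edgeR, and is the penis effect minus the limb effect on the log2 scale unless said otherwise. In chondrocytes the difference was 2.08 ± 0.20 for *Aspn*, 1.12 ± 0.30 for *Ogn*, -1.04 ± 0.21 for *Fmod* and -3.04 ± 0.30 for *Prelp*. *Epyc* differed with an adjusted p of 4.67e-10, with no UMI in the penis chondrocytes, so no size is given. The gate drew unlike cells in the tissues, 82.8% to 86.8% of the penis chondrocytes reaching the mesenchymal limit against 24.9% and 28.4% in limb, and the part of this in the differences was not tested.

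In osteoblasts the difference was 1.74 ± 0.26 for *Dcn*, 2.27 ± 0.26 for *Lum* and -1.44 ± 0.27 for *Omd*. The median of all genes for this term was 0.11. In tendon cells it was 1.16 ± 0.23 for *Lum* and 1.52 ± 0.18 for *Kera*. In mural cells it was -1.05 ± 0.14 for *Bgn* and -1.88 ± 0.43 for *Fmod*, the latter resting on 38 and 19 UMIs in forelimb and hindlimb. The groups held 3, 1 and 1 libraries, too few to look for a library that stands apart in a single gene. Leaving out a single library ended the call of chondrocyte *Fmod* (penis replicate 2 or forelimb) and *Ogn* (penis replicate 2 or 3, or hindlimb), of osteoblast *Dcn* (hindlimb) and *Omd* (forelimb or hindlimb), of tendon *Lum* (either limb library), and of mural *Bgn* (hindlimb) and *Fmod* (penis replicate 1 or 3, or forelimb). Thinning to 2000 UMIs ended the chondrocyte calls of *Aspn*, *Fmod*, *Prelp* and *Ogn* and the mural call of *Fmod*. The thinned fit also lacked the chondrocytes of penis replicate 3, with 17 cells.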

How the results depend on the processing

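Of 923 values under an alternative of members that passed or whose value is followed here, 815 kept their direction and side of the limits, 64 fell short of the limits, 28 newly passed and 16 changed sign. Over all members and comparisons, 68 calls were lost and 60 were gained. No paired analysis was possible, because the penis libraries came from P6 males and the limb libraries from e15 embryos, which are different animals. This concerns penis against limb, and the type effects were fitted with the library as a block. The osteoblast against mesenchymal comparisons had under 20 cells in some library with 1 more marker and when thinned, and gave no value there. Thinned chondrocyte type effects and their tissue difference used penis chondrocytes of replicates 1 and 2 only, 25 and 22 cells. Replicate 3 had 17 and was left out. Thinned cells were gated again, which left fewer of them. Beyond these constructions, the cause of a change was not tested.

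The number of members passing fell when thinned to 4 (from 8) in chondrocytes, 1 (from 3) in osteoblasts, 1 (from 5) in mural cells and 2 (from 5) in endothelial cells for penis against limb, to 3 (from 6) for penis chondrocytes against mesenchymal cells, and for the tissue difference of the type effect to 2 (from 5) in chondrocytes and 1 (from 2) in mural cells. Fewer members were tested when thinned: 4 in chondrocytes, all of which passed, 4 in osteoblasts and 5 each in mural and endothelial cells. The number rose for mural against mesenchymal cells to 6 in penis (from 1) and 2 in limb (from 0). These rises were not set against the share of all genes that passed when thinned. With 1 more marker the mural numbers were 1 for penis against limb, 5 in penis, 2 in limb and 4 for the difference. Without the filter on low counts they were 5 in osteoblasts, 5 in Schwann cells (from 3) and 2 for penis mural cells. All barcodes gave 5 in osteoblasts, and DESeq2 gave 3 in endothelial cells. Leaving out 1 library gave 3 to 5 in mural cells and, for the difference, 3 to 5 in chondrocytes, 1 to 3 in osteoblasts and 1 to 2 in mural cells.

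Signs changed in mesenchymal cells for *Prelp* (-0.65), *Lum* (0.090), *Kera* (0.28) and *Aspn* (-0.45) in *Pi16* cells, *Epyc* (-0.72) without the *Pi16* markers and *Aspn* (-0.063) without division genes. They changed for mural *Dcn* (-0.22) and *Ogn* (-0.37) when thinned and mural *Kera* (0.81) with 1 more marker. Leaving out 1 library gave -0.11 to 0.48 for mesenchymal *Aspn*, -0.18 to 0.037 for osteoblast *Omd*, -0.072 to 0.37 for tendon *Lum*, -0.53 to 0.41 for tendon *Prelp*, -1.83 to 0.55 for tendon *Epyc* and -1.11 to 0.12 for chondrocyte *Kera*.

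Over all genes, thinning also left fewer genes tested (13061 mesenchymal, 1016 chondrocyte, 338 osteoblast, 3079 tendon, 3975 mural, 8801 endothelial and 5325 Schwann). It took the calls for penis against limb from 5006 to 2386 (mesenchymal), 1919 to 205 (chondrocyte), 227 to 3 (osteoblast), 2172 to 430 (tendon), 1648 to 260 (mural), 2093 to 885 (endothelial) and 1861 to 608 (Schwann). For the type effects it took them from 1596 to 336 (penis chondrocyte), 997 to 376 (penis tendon) and 2052 to 977 (limb chondrocyte), and for the differences from 1252 to 230 (chondrocyte), 597 to 240 (tendon) and 295 to 100 (mural). With 1 more marker the calls were 38 (osteoblast), 1194 (tendon) and 902 (mural), and for type effects 1600 against 949 (penis mural), 538 against 292 (limb tendon) and 727 against 377 (limb mural). Without the filter they were 595 (osteoblast), 558 against 314 (limb osteoblast), 445 against 190 (osteoblast difference) and 467 against 295 (mural difference). All barcodes gave 478 in osteoblasts, *Pi16* cells 3053 and non-mesenchymal chondrocytes 366. Leaving out 1 library gave 117 to 159 in osteoblasts, 116 to 222 for limb osteoblasts, 168 to 178 for limb tendon and 204 to 234 for limb mural cells, and for the differences 95 to 158 (osteoblast), 365 to 523 (tendon) and 156 to 269 (mural).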
